A study of Canis lupus familiaris with 34 samples.

Results

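The genes described here are 40 macrophage and granulocyte genes, listed by symbol, whose expression was read in all 34 canine primary cutaneous mast cell tumours (MCTs) of a study of metastasis. Of the 40 genes, 35 had a transcript cluster (gene-level probe set) annotated to that symbol alone, out of 16295 symbols with a cluster of their own in the table, and the cluster with the highest mean represented a gene that had several. C1QA, C1QB and C1QC shared 1 cluster, which was read as a joint C1q value, and no cluster carried the symbol CD68 or ELANE. Testing was limited to clusters whose log2 value exceeded 1.84, the median over the whole table, in 30% or more of one or both metastasis groups, which left 27 of the 35 genes. The other 8, MSR1, FCGR1A, TREM1, CLEC7A, TLR2, CD80, CYBB and EPX, gave values near or under that median in most tumours and are described without a test.

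RNA came from formalin-fixed, paraffin-embedded biopsies, so each value is a mixture of mast cells, skin, stroma and infiltrating leukocytes. The 18 metastasising (M) MCTs were borne by dogs that died of, or were euthanased because of, MCT metastatic disease, with or without adjuvant therapy. The 16 non-metastasising (NM) MCTs came from dogs that had no adjuvant therapy and were alive, without detected metastasis, at long follow-up. M dogs were aged 2 to 15 years (median 8) and 9 of them were female, whereas NM dogs were aged 3 to 11 years (median 5) and 5 were female. The study reports that the stored NM specimens were on average older than the M specimens, and that specimen age did not correlate with RNA integrity. Specimen age was not a covariate in any fit here. There were 11 named breeds besides cross-breeds. The Labrador Retrievers numbered 7 M and 3 NM, the cross-breeds 3 M and 3 NM, and the Boxers and the Golden Retrievers 1 M and 3 NM each. Each MCT came from a different dog, so that p-values measure the spread between dogs. In bulk RNA, fewer cells of a type and less RNA per cell cannot be told apart.

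Macrophages take up debris and microbes through scavenger and complement receptors and digest them in lysosomes, and are marked in tissue by receptors such as CD163 and CD14. Neutrophils and eosinophils carry preformed granule proteins, and neutrophils also hold large stores of the calgranulins S100A8, S100A9 and S100A12, which stressed keratinocytes make as well. Eosinophils are a familiar companion of canine mast cell tumours. Several of the 40 genes are not confined to these cells: mast cells are themselves haematopoietic and use RAC2, LCP1, PTPRC, SPI1 and TYROBP.

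The arrays correlated pairwise between 0.636 and 0.954, with medians of 1.79 to 1.91. The mast cell score (the mean z-score of 17 mast cell genes tested) averaged 0.0196 ± 0.603 in M MCTs and -0.0220 ± 0.859 in NM MCTs (SD). The keratinocyte score (24 genes) averaged -0.363 ± 0.604 in M MCTs and 0.409 ± 0.979 in NM MCTs (SD). All 24 keratinocyte genes were below 0 in M minus NM, while 43.9% of all clusters tested were above 0. At an unadjusted limma p under 0.05 there were 22, against 4.14% of all clusters in either direction, and 0 passed after adjustment. The study had already reported several of these genes as lower in M in the same tumours, so the count is not independent of its result. Their mean log2 level ran from 2.07 to 4.45 in M MCTs and from 2.22 to 5.55 in NM MCTs. One NM tumour stood apart by its melanocyte markers: NM 8, a Golden Retriever, had a melanocyte score of 3.10, against at most 0.48 in every other MCT. Its mast cell score of -0.68 did not set it apart, with lower scores in NM 1 (-1.03) and NM 7 (-0.86). Results that rest on NM 8 are given with and without it.

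None of the 27 genes differed between M and NM MCTs after Benjamini-Hochberg adjustment (limma, adjusted p under 0.05), against a background of 0% of the 19246 clusters tested. At an unadjusted p under 0.05, 1 of the 27 differed, against 4.14% of all clusters tested. That gene, TLR4, and also AIF1 had passed the level filter through the M MCTs only, the group where each was higher. MRC1 had passed it through the NM MCTs only, where it was higher. The M minus NM difference was above 0 for 16 genes and below 0 for 11, while 43.9% of all clusters were above 0. The median difference was 0.06 over the 27 genes and -0.02 over all clusters, on the log2 scale where 1 is a 2-fold change. The methods' t-test, here with Benjamini-Hochberg adjustment, gave the same counts, 0 after adjustment and 1 before. The study adjusted by permutation over its own set of expressed clusters and reported differing genes, so these counts do not repeat its procedure.

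**Figure D1:**
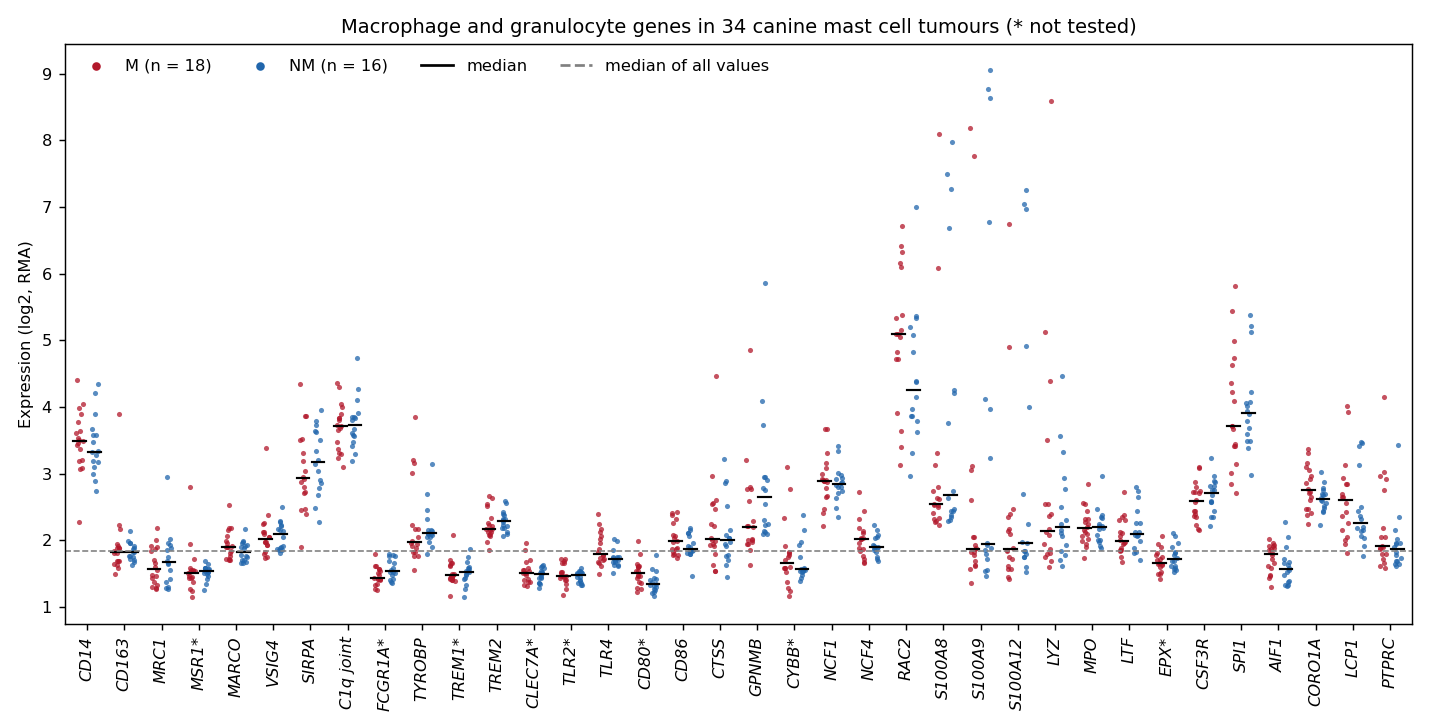
Log2 expression (vertical axis) of the 35 genes with their own cluster and of the joint C1q cluster, 1 point per tumour, with M MCTs (red, n = 18) left of NM MCTs (blue, n = 16), black bars at the group medians and a dashed line at the median of all values in the table. The M and NM points overlapped for each gene, with 6 tumours apart from the rest for S100A8, S100A9 and S100A12 and 1 far above the rest for LYZ (8.59) and for CD163 (3.90).

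Among the macrophage surface receptors, 6 of 7 were tested, 4 above and 2 below 0 in M minus NM, with differences from -0.14 to 0.10 and none at an unadjusted p under 0.05. CD14, the lipopolysaccharide co-receptor, ranged from 2.27 to 4.40 (median 3.49) in M MCTs and from 2.73 to 4.35 (median 3.33) in NM MCTs. The NM range lay inside the M range, and the difference was 0.07 (SE 0.15, limma adjusted p = 1.00). SIRPA, the receptor that reads CD47 on other cells, ranged from 1.89 to 4.35 (median 2.93) in M MCTs and from 2.27 to 3.95 (median 3.18) in NM MCTs, a difference of -0.14 (SE 0.19, limma adjusted p = 1.00). MARCO, a scavenger receptor, ranged from 1.70 to 2.53 (median 1.90) in M MCTs and from 1.65 to 2.18 (median 1.83) in NM MCTs. Its difference was 0.10 (SE 0.07, unadjusted limma p = 0.135, adjusted p = 1.00), and the highest value was that of M 9, a Hungarian Vizsla. MRC1, the mannose receptor, gave -0.10 and VSIG4, a complement receptor of resident macrophages, gave 0.02.

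CD163, the haemoglobin scavenger receptor, ranged from 1.501 to 3.90 (median 1.82) in M MCTs and from 1.63 to 2.14 (median 1.83) in NM MCTs. The groups overlapped almost wholly apart from M 8, a German Shepherd Dog, and the difference was 0.09 (SE 0.13, limma adjusted p = 1.00). M 8 held 3.90 for CD163, against at most 2.23 in every other MCT. The same tumour was the highest of all for the scavenger receptor MSR1 (2.79, next 1.94), VSIG4 (3.38, next 2.50) and the lysosomal protease CTSS (4.46, next 3.21). Its fibroblast and matrix score, 2.26, was also the highest, next to 2.19 in NM 9. Across the 34 MCTs CD163 correlated with VSIG4 (Pearson r = 0.739, permutation p = 0.00647, adjusted 0.0101; Spearman rho = 0.285, permutation p = 0.102, adjusted 0.151), but r was 0.212 without M 8 and M 11, so that the relation rested on those tumours. CD163 and CTSS gave r = 0.749 (permutation p = 0.00022, adjusted 0.000458) and rho = 0.340 (permutation p = 0.0511, adjusted 0.0799), with r = 0.424 without the same pair. CD163 also followed the fibroblast and matrix score (r = 0.658, permutation p = 1e-05, the smallest these permutations can give, adjusted 3.57e-05; rho = 0.572, permutation p = 0.00046, adjusted 0.00144), and r was 0.566 without M 8 and NM 9. It was 0.768 within the M MCTs and 0.673 within the NM MCTs. The 5 genes whose values were most like those of CD163 were CDH11 (Pearson r = 0.859), LGMN (0.858), HMOX1 (0.847), ADAM12 (0.838) and CPXM1 (0.835), all over 34 MCTs and with M 8 included. These relations are among 25 computed, all chosen after the values were seen, and the adjusted values are Benjamini-Hochberg over the 25.

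The joint cluster of the complement C1q subunits, the opsonins made chiefly by tissue macrophages, ranged from 3.10 to 4.36 (median 3.72) in M MCTs and from 3.18 to 4.73 (median 3.74) in NM MCTs. The difference was -0.06 (SE 0.13, limma adjusted p = 1.00). Its highest value was that of NM 9, a Golden Retriever, in which MRC1 (2.96) and AIF1 (2.27) were also at their highest. FCGR1A was highest there too, at 1.798, but M 8 reached 1.796 and every tumour was under 1.84.

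Of the 7 Fc, adaptor and innate recognition receptors only TYROBP, TREM2 and TLR4 were tested. TLR4, the receptor for lipopolysaccharide, was the 1 gene of the 27 at an unadjusted p under 0.05. It ranged from 1.49 to 2.39 (median 1.801) in M MCTs and from 1.51 to 2.01 (median 1.72) in NM MCTs. The ranges overlapped, and TLR4 lay above 1.84 in 8 M and 3 NM MCTs. The difference was 0.15 (SE 0.07, unadjusted limma p = 0.0459, adjusted p = 1.00), and with the age of the dog as a covariate it was 0.06 (unadjusted limma p = 0.404). Without M 2, the 15-year-old cross-breed with the highest TLR4, it was 0.12 (unadjusted limma p = 0.0840). TREM2, a lipid receptor of macrophages, ranged from 1.86 to 2.66 in M MCTs and from 2.06 to 2.59 in NM MCTs, a difference of -0.06 (SE 0.07, limma adjusted p = 1.00). TYROBP, the signalling adaptor that TREM2 uses, gave 0.04. FCGR1A, the high-affinity IgG receptor, and TLR2, a receptor for bacterial lipopeptides, were under 1.84 in every tumour, and TREM1 and CLEC7A were above it in 2 tumours each.

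Of the co-stimulatory ligands of T cells, CD86 was tested and ranged from 1.74 to 2.43 (median 1.98) in M MCTs and from 1.46 to 2.19 (median 1.87) in NM MCTs. The difference was 0.11 (SE 0.08, unadjusted limma p = 0.138, adjusted p = 1.00). CD80 lay above 1.84 in 1 tumour, M 10.

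Among the lysosomal and phagosomal proteins, GPNMB, a membrane glycoprotein of lipid-laden macrophages that melanocytes also make, ranged from 1.63 to 4.85 (median 2.20) in M MCTs and from 2.09 to 5.87 (median 2.64) in NM MCTs. The ranges overlapped, and the 3 highest tumours were NM 8 (5.87), M 8 (4.85) and NM 9 (4.08). The difference was -0.46 (SE 0.29, unadjusted limma p = 0.120, adjusted p = 1.00). Single tumours decided its size: it was -0.26 (unadjusted limma p = 0.270) without NM 8, the tumour with the melanocyte score of 3.10, and -0.60 (unadjusted limma p = 0.0236) without M 8. CTSS gave 0.12.

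The NADPH oxidase genes NCF1, NCF4 and RAC2 were tested, and each was above 0 in M minus NM. RAC2, the haematopoietic GTPase that activates the oxidase and also acts in mast cells, ranged from 3.12 to 6.71 (median 5.09) in M MCTs and from 2.96 to 6.997 (median 4.26) in NM MCTs. The M median was higher, but the single highest tumour was NM 12, a Labrador Retriever, and the ranges overlapped nearly throughout. The difference was 0.62 (SE 0.34, unadjusted limma p = 0.0769, adjusted p = 1.00). It was the only one of the 27 of at least 0.5 above 0, a size reached by 0.566% of all clusters, and it lay between 0.50 and 0.84 in 13 alternative fits. With the mast cell score as a covariate the RAC2 difference was 0.57 (unadjusted limma p = 0.00842, adjusted p = 1.00), and with that of keratinocytes 0.84 (unadjusted limma p = 0.0325, adjusted p = 1.00). With age it was 0.50 (unadjusted limma p = 0.209), without NM 8 it was 0.52 (unadjusted limma p = 0.133), and without NM 12 it was 0.79 (unadjusted limma p = 0.0165). CYBB, the catalytic subunit of the oxidase, was not tested; its highest values were 3.11 in M 2 and 2.76 in M 4, both cross-breeds.

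**Figure D2:**
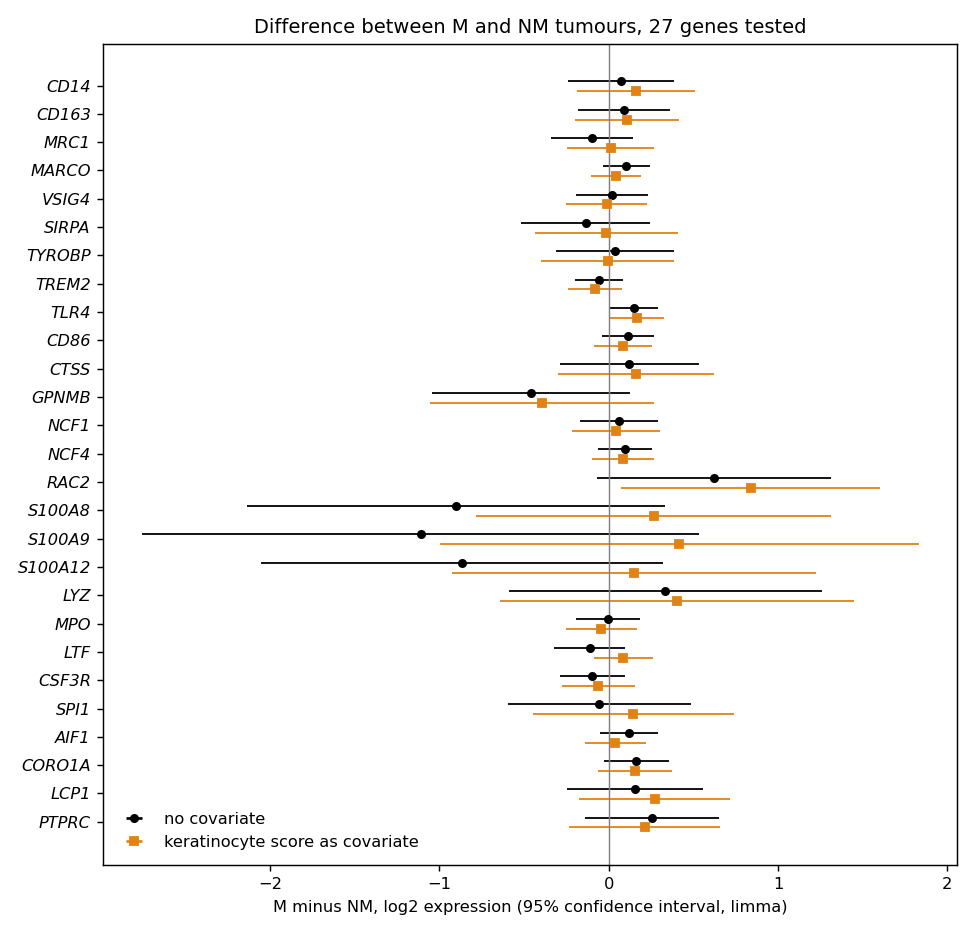
M minus NM difference in log2 expression (horizontal axis) for the 27 genes tested, with 95% confidence intervals from limma, unadjusted for any covariate (black circles) and adjusted for the keratinocyte score (orange squares). Without a covariate only the TLR4 interval lay above 0, and with the keratinocyte score the points of S100A8, S100A9, S100A12, SPI1, LTF, MRC1, VSIG4 and TYROBP changed sign.

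The calgranulins S100A8, S100A9 and S100A12, calcium-binding alarmins of neutrophils and of stressed epithelium, were all below 0 in M minus NM and were the 3 genes with a difference of at least 0.5 below 0, a size reached by 1.32% of all clusters. S100A8 ranged from 2.23 to 8.09 (median 2.54) in M MCTs and from 2.28 to 7.97 (median 2.68) in NM MCTs. S100A9 ranged from 1.36 to 8.18 (median 1.88) in M MCTs and from 1.47 to 9.05 (median 1.94) in NM MCTs. S100A12 ranged from 1.43 to 6.75 (median 1.87) in M MCTs and from 1.52 to 7.25 (median 1.96) in NM MCTs. The medians of the groups were close, and the spread came from a few very high tumours in each. The differences in means were -0.90 (SE 0.61, unadjusted limma p = 0.146) for S100A8, -1.11 (SE 0.81, unadjusted limma p = 0.178) for S100A9 and -0.87 (SE 0.58, unadjusted limma p = 0.147) for S100A12, each with an adjusted p of 1.00.

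The tumours fell into separate clusters for these genes. S100A8 was at least 6.08 in 6 MCTs and at most 4.26 in the other 28, and the same 6 had S100A9 of at least 6.77, against at most 4.11, and S100A12 of at least 4.90, against at most 4.00. The 6 were M 11 and M 13 (Labrador Retrievers), NM 9 (Golden Retriever), NM 12 (Labrador Retriever), NM 14 (Miniature Schnauzer) and NM 16 (Whippet), which is 2 of 18 M and 4 of 16 NM MCTs. S100A8 was 8.09 in M 13 and 6.08 in M 11, against 7.97 in NM 12, 7.49 in NM 14, 7.27 in NM 9 and 6.68 in NM 16. MPO, the azurophil granule peroxidase, was not set apart in these 6, at 2.003 to 2.34. LTF, which encodes lactoferrin, went the other way in most of them. Its 3 highest values of all were those of NM 14 (2.79), NM 16 (2.75) and M 11 (2.73). LTF was 2.65 in NM 9, 2.30 in M 13 and 1.82 in NM 12. The part of neutrophils in these values was not tested. CSF3R, the receptor for granulocyte colony-stimulating factor, ran from 2.44 to 3.23 in them, and its highest values of all were those of NM 12 (3.23) and M 13 (3.10).

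All 6 had keratinocyte scores of 0.86 to 2.14. Of the other 28 tumours 3 (NM 1, NM 5 and NM 10) also exceeded 0.86, with S100A8 of 2.38 to 3.76. Since the tumours form separate clusters by S100A8 itself, no pooled correlation with the keratinocyte score is given, and none within the 6. Within the other 28, a set defined by S100A8, r with the score was 0.202 for S100A8 (permutation p = 0.302, adjusted 0.3775). It was 0.103 for S100A9 (permutation p = 0.615, adjusted 0.722) and -0.0895 for S100A12 (permutation p = 0.6355, adjusted 0.722). Adjusted for the keratinocyte score, the M minus NM difference was 0.27 (unadjusted limma p = 0.609) for S100A8, 0.42 (unadjusted limma p = 0.553) for S100A9 and 0.15 (unadjusted limma p = 0.777) for S100A12. With age as a covariate it was -0.37 for S100A8 (unadjusted limma p = 0.582). The part of keratinocytes in the calgranulin values was not tested beyond these fits.

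**Figure D3:**
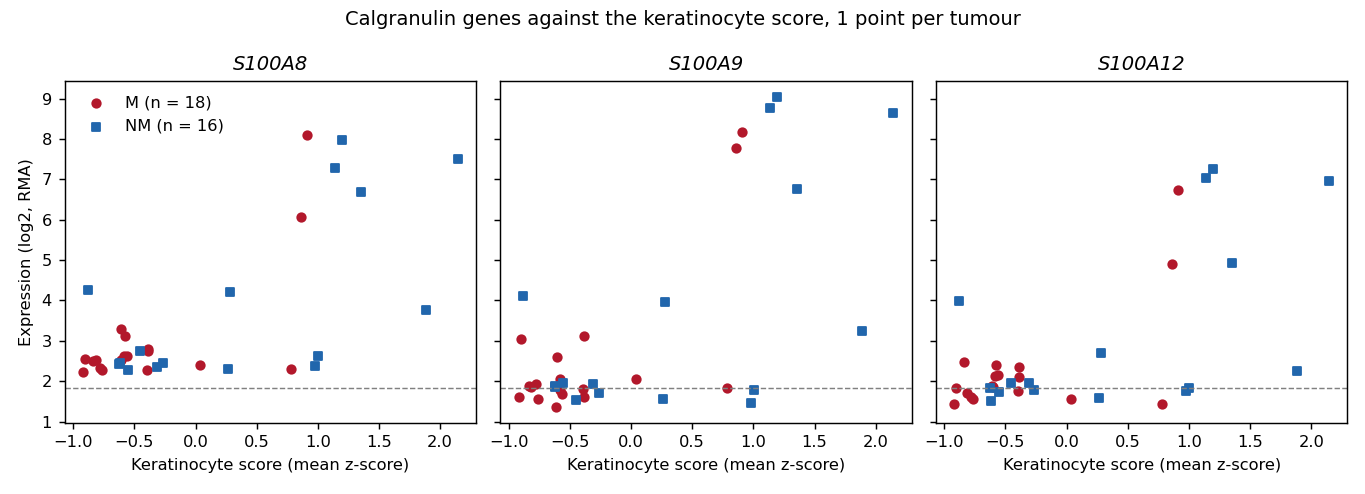
Log2 expression of S100A8, S100A9 and S100A12 (vertical axes) against the keratinocyte score (horizontal axes, mean z-score of 24 genes), 1 point per tumour, M MCTs as red circles and NM MCTs as blue squares, with a dashed line at the median of all values in the table. The 6 high tumours all lay at a keratinocyte score of 0.86 or more, alongside 3 tumours with S100A8 of at most 3.76.

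Among the 28 low tumours, a set defined by S100A8, the 3 pairs of calgranulins correlated unequally. S100A8 and S100A12 gave r = 0.804 (permutation p = 1e-05, adjusted 3.57e-05) and rho = 0.791 (permutation p = 1e-05, adjusted 5e-05), with r = 0.595 without NM 8 and NM 13 and 0.588 within M MCTs. S100A8 and S100A9 gave r = 0.832 (permutation p = 2e-05, adjusted 6.25e-05) and rho = 0.421 (permutation p = 0.0262, adjusted 0.0468), with r = 0.589 and rho = 0.277 without the same pair and r = 0.381 within M MCTs. S100A9 and S100A12 gave r = 0.705 (permutation p = 0.00029, adjusted 0.000558) and rho = 0.382 (permutation p = 0.0456, adjusted 0.0759), with r = 0.342 without the same pair and 0.214 within M MCTs, so that this relation rested on NM 8 and NM 13. In the RefSeq annotation of the dog genome (UU_Cfam_GSD_1.0) S100A8, S100A12 and S100A9 are neighbours on chromosome 7, with no other gene between them. Over all 34 MCTs, high tumours included, the genes most like S100A8 were S100A9 (Pearson r = 0.980), S100A12 (0.978), CBD103 (0.880), AQP3 (0.859) and GJB2 (0.856). These r values span both clusters of tumours, and so carry the gap between them. For S100A8 and S100A9 Spearman rho over the same tumours was 0.674. CBD103 is a beta-defensin, and AQP3 and GJB2 are a water channel and a gap junction protein of the epidermis. Which cells made the S100A8 transcripts was not tested.

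Of the 5 granule protein genes, LYZ, MPO and LTF were tested, and none passed at an unadjusted p under 0.05. LYZ, the secreted lysozyme, ranged from 1.60 to 8.59 (median 2.15) in M MCTs and from 1.62 to 4.46 (median 2.20) in NM MCTs. The M range was stretched by M 7, a Golden Retriever, at 8.59, next to 5.12 in M 2. The difference was 0.33 (SE 0.46, limma adjusted p = 1.00), and it was -0.01 without M 7 and 1.01 (unadjusted limma p = 0.0345, adjusted p = 1.00) with breed as a block. The genes most like LYZ over the 34 MCTs, M 7 included, were CCT2 (Pearson r = 0.896), OSTF1 (0.894), ARHGEF6 (0.893), CLPTM1L (0.891) and SYNJ1 (0.882). MPO ranged from 1.73 to 2.85 in M MCTs and from 1.89 to 2.96 in NM MCTs, a difference of 0.00. LTF, the iron-binding lactoferrin of neutrophil secondary granules and of epithelial secretions, ranged from 1.68 to 2.73 in M MCTs and from 1.70 to 2.79 in NM MCTs, a difference of -0.11. LTF followed the keratinocyte score (r = 0.694, permutation p = 1e-05, adjusted 3.57e-05; rho = 0.650, permutation p = 6e-05, adjusted 0.00025), with r = 0.682 within M MCTs, 0.706 within NM MCTs and 0.654 without NM 14 and NM 1.

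EPX, the eosinophil peroxidase, ranged from 1.42 to 2.06 in M MCTs and from 1.53 to 2.11 in NM MCTs, and was above 1.84 in 3 M and 4 NM MCTs. No tumour stood apart for it. CSF3R ranged from 2.15 to 3.10 in M MCTs and from 2.22 to 3.23 in NM MCTs, a difference of -0.10 (SE 0.10, limma adjusted p = 1.00). Of 23 further granulocyte genes 10 were tested and none differed at an unadjusted p under 0.05, against 4.14% of all clusters. Of these, 9 were above 0, against 43.9% of all clusters, with a median of 0.07. The smallest p was that of the eotaxin receptor CCR3, which averaged 1.89 ± 0.26 in M MCTs and 1.73 ± 0.22 in NM MCTs (SD), a difference of 0.16 (unadjusted limma p = 0.0608, adjusted p = 1.00). Of 40 further myeloid genes 25 were tested, 15 were above 0, against 43.9% of all clusters, and the median was 0.03. Of the 25, 1 was past an unadjusted p of 0.05, near the share of 4.14% of all clusters. It was CD53, a pan-leukocyte tetraspanin, at 2.62 ± 1.10 in M MCTs and 2.01 ± 0.50 in NM MCTs (SD), a difference of 0.61 (unadjusted limma p = 0.0442, adjusted p = 1.00). The neutrophil chemokine CXCL8 averaged 1.88 ± 0.46 in M MCTs and 2.48 ± 1.43 in NM MCTs (SD), a difference of -0.60 (unadjusted limma p = 0.0905, adjusted p = 1.00).

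The transcription factor, cytoskeletal and pan-leukocyte genes SPI1, AIF1, CORO1A, LCP1 and PTPRC were all tested, 4 above and 1 below 0. SPI1 (PU.1), the transcription factor of the myeloid lineage, ranged from 2.70 to 5.82 (median 3.71) in M MCTs and from 2.99 to 5.38 (median 3.91) in NM MCTs. The groups overlapped, and the difference of -0.06 (SE 0.27, limma adjusted p = 1.00) turned above 0 in 3 alternative fits and without any 1 of 6 single tumours. CORO1A, an actin regulator of leukocytes, ranged from 2.25 to 3.38 (median 2.75) in M MCTs and from 2.23 to 3.03 (median 2.62) in NM MCTs. Its difference was 0.16 (SE 0.09, unadjusted limma p = 0.0926, adjusted p = 1.00). AIF1, the macrophage and microglial protein IBA1, gave 0.12, the actin bundler LCP1 gave 0.15, and PTPRC (CD45), the phosphatase on all leukocytes, gave 0.26.

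Several of these genes varied with the mast cell score over the 34 MCTs. RAC2 gave r = 0.779 (permutation p = 1e-05, adjusted 3.57e-05) and rho = 0.852 (permutation p = 1e-05, adjusted 5e-05), with r = 0.738 within M MCTs, 0.897 within NM MCTs and 0.727 without NM 12 and M 7. LCP1 gave r = 0.810 (permutation p = 1e-05, adjusted 3.57e-05) and rho = 0.822 (permutation p = 1e-05, adjusted 5e-05), with r = 0.860 within M MCTs and 0.807 within NM MCTs. PTPRC gave r = 0.684 (permutation p = 0.00013, adjusted 0.000296) and rho = 0.757 (permutation p = 1e-05, adjusted 5e-05). Thus tumours with more mast cell transcripts also had more of these pan-leukocyte transcripts, in each group.

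SPI1 (r = 0.544, permutation p = 0.00093, adjusted 0.00166; rho = 0.533, permutation p = 0.00128, adjusted 0.00335), NCF1 (r = 0.622, permutation p = 7e-05, adjusted 0.000194; rho = 0.512, permutation p = 0.00254, adjusted 0.00577), TYROBP (r = 0.676, permutation p = 8e-05, adjusted 0.0002; rho = 0.483, permutation p = 0.00456, adjusted 0.0095) and LYZ (r = 0.606, permutation p = 0.0014, adjusted 0.00233; rho = 0.620, permutation p = 0.00012, adjusted 0.000429) gave lower values. Without NM 12 and M 7 their r was 0.461 for SPI1, 0.449 for NCF1, 0.4496 for TYROBP and 0.565 for LYZ. The genes most like RAC2 over the 34 MCTs were CD37 (Pearson r = 0.911), ATP2A3 (0.835), PTGS1 (0.830), LCP1 (0.826) and LCP2 (0.818). RAC2 was added to the genes for which a nearest set is named after its values were seen. As a description over 34 MCTs, Pearson r with the fibroblast and matrix score was 0.658 for CD163, 0.757 for CTSS and 0.703 for SPI1. It was 0.637 for MRC1, 0.635 for SIRPA and 0.5265 for LCP1. With the mast cell score r was 0.524 for SIRPA and 0.473 for CTSS, so several genes followed both scores. With the score of the further myeloid genes r was 0.830 for SPI1, 0.799 for LCP1, 0.777 for CTSS, 0.709 for RAC2 and 0.702 for TYROBP. It was 0.599 for LYZ, 0.598 for PTPRC and 0.460 for NCF1. For SPI1, CTSS and TYROBP it exceeded r with the mast cell score, and for RAC2, LCP1, PTPRC, LYZ and NCF1 it did not. With the B and plasma cell score r was 0.583 for PTPRC and 0.5245 for RAC2.

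**Figure D4:**
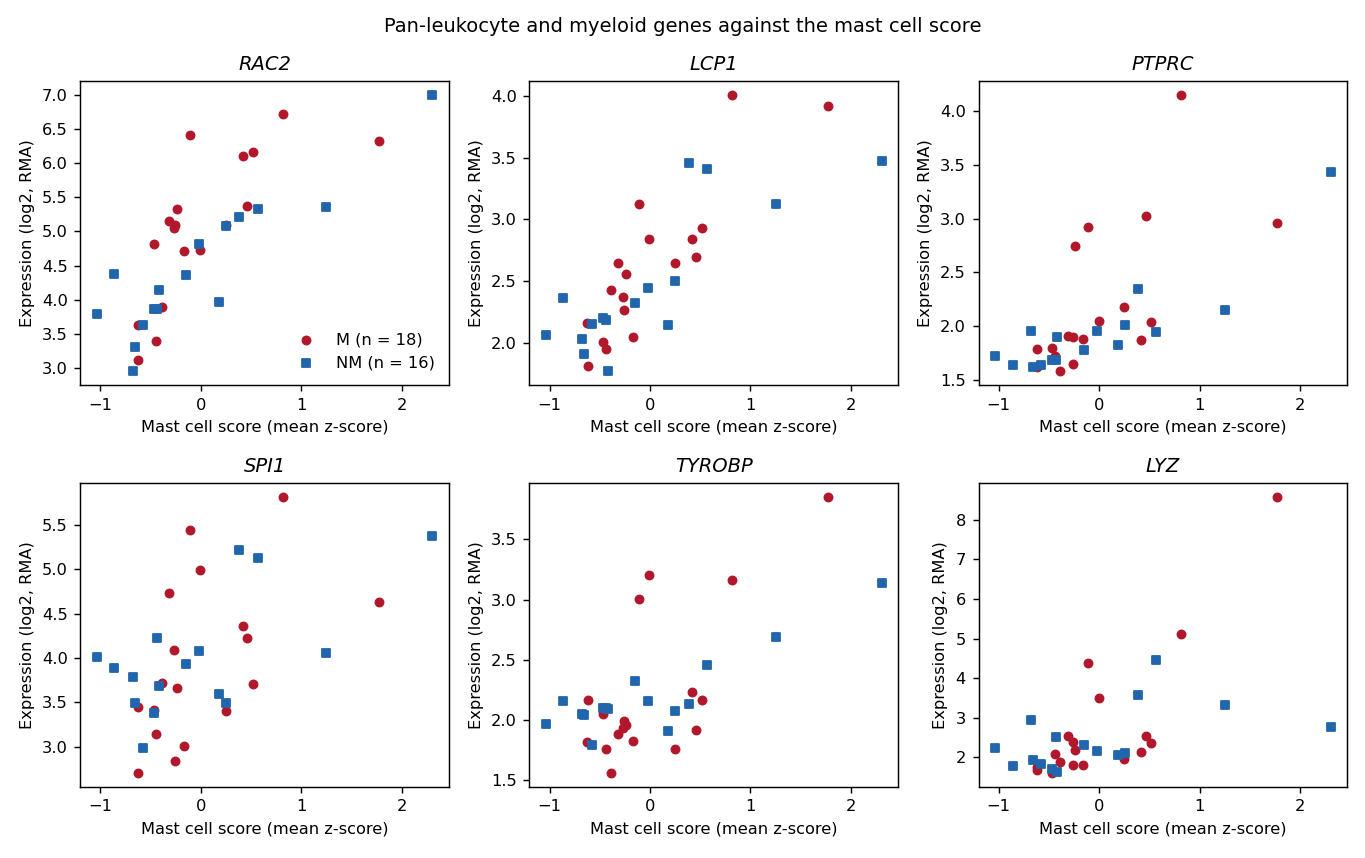
Log2 expression of RAC2, LCP1, PTPRC, SPI1, TYROBP and LYZ (vertical axes, each with its own scale) against the mast cell score (horizontal axes, mean z-score of 17 genes), 1 point per tumour, M MCTs as red circles and NM MCTs as blue squares. RAC2 and LCP1 climbed with the score in both groups, whereas LYZ was above 5 only in M 7 (8.59) and M 2 (5.12).

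Over the 351 pairs of the 27 genes the median Pearson r was 0.15, with 45 pairs above 0.5 and 102 below 0, so the 27 genes did not vary as 1 set across tumours.

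Breeds with at least 4 MCTs (24 MCTs in all) were compared by a moderated F test with the metastasis group as a covariate. None of the 27 genes passed after adjustment (limma, background 0%), and 2 of 27 had an unadjusted p under 0.05, against 7.38% of all clusters. LYZ averaged 4.40 ± 2.83 in Golden Retrievers (n = 4), 3.16 ± 1.36 in cross-breeds (n = 6), 2.13 ± 0.42 in Labrador Retrievers (n = 10) and 1.999 ± 0.32 in Boxers (n = 4; SD). Its unadjusted limma p was 0.00428 (adjusted p = 0.543), and without M 7 it was 0.0203. In Golden Retrievers LYZ was 8.59 in M 7, against 3.57 in NM 9, 2.94 in NM 8 and 2.50 in NM 10, and the highest Boxer reached 2.31. The size of the range between breeds, 2.81, was 1.19 without M 7, and the unadjusted p stayed under 0.05 without any 1 of the 24 tumours. GPNMB averaged 3.73 ± 1.62 in Golden Retrievers, and its unadjusted limma p of 0.0329 (adjusted p = 0.657) was 0.278 without NM 8. S100A8 (unadjusted limma p = 0.133) and SIRPA (0.147) were next.

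Set against the 24 other dogs, with the metastasis group as a covariate, the 10 Labrador Retrievers differed in none of the 27 genes after adjustment (limma, background 0%) and in 1 at an unadjusted p under 0.05, against 4.10% of all clusters. S100A8 ranged from 2.41 to 8.09 (median 3.02) in Labrador Retrievers and from 2.23 to 7.49 (median 2.51) in other dogs. The difference was 1.33 (SE 0.65, unadjusted limma p = 0.0492, adjusted p = 0.930), and without M 13 it was 0.90. RAC2 ranged from 4.14 to 6.997 (median 5.12) in Labrador Retrievers and from 2.96 to 6.71 (median 4.38) in other dogs, a difference of 0.69 (SE 0.37, unadjusted limma p = 0.0721, adjusted p = 0.930), or 0.40 without NM 12 and 0.36 with the mast cell score as a covariate. CD14 gave 0.29 (SE 0.17, unadjusted limma p = 0.0890), or 0.19 without NM 12.

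With breed held constant, M minus NM in Labrador Retrievers (7 M, 3 NM) gave no gene past adjustment (limma, background 0%) and 1 of 27 at an unadjusted p under 0.05, against 1.90% of all clusters. CD14 ranged from 3.19 to 3.90 (median 3.45) in M Labrador Retrievers, against 4.35, 4.21 and 3.67 in NM 12, NM 13 and NM 11. Of the NM tumours only NM 11 lay within the M range. The difference was -0.58 (SE 0.20, unadjusted limma p = 0.0169, adjusted p = 1.00), and without NM 12 it was -0.44 (unadjusted limma p = 0.0881). TYROBP gave -0.45 (SE 0.21, unadjusted limma p = 0.0603), which without NM 12 was -0.11.

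In cross-breeds (3 M, 3 NM) no gene passed after adjustment (limma, background 0%), and 4 of 27 had an unadjusted p under 0.05, all higher in M, against 2.91% of all clusters in either direction and 1.81% higher. Differences of at least 0.5 above 0 were seen for 7 of the 27 genes, against 8.24% of all clusters. SPI1 was 5.82, 4.09 and 5.45 in M 2, M 3 and M 4, against 2.99, 3.49 and 4.05 in NM 4, NM 5 and NM 6. RAC2 was 6.71, 5.05 and 6.42 in the same M tumours, against 3.63, 3.31 and 5.36 in the NM tumours. CD14 was 4.05, 4.40 and 3.48 in the M tumours, against 3.58, 3.10 and 3.17 in the NM tumours. For SPI1 the lowest M tumour, at 4.09, lay just above the highest NM tumour, at 4.05. For CORO1A these values were 2.86 and 2.75. For RAC2 and CD14 1 NM tumour lay above the lowest M tumour. The share of all clusters without overlap between 3 M and 3 NM tumours was not counted, so no weight is put on it.

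The cross-breed differences were 1.61 for SPI1 (SE 0.50, unadjusted limma p = 0.0160), 1.96 for RAC2 (SE 0.66, unadjusted limma p = 0.0223), 0.48 for CORO1A (SE 0.19, unadjusted limma p = 0.0401) and 0.69 for CD14 (SE 0.28, unadjusted limma p = 0.0431), each with an adjusted p of 0.990. The count of 4 was 0 without M 2 and 1 without M 4 or without NM 5, and it was 7 without M 3. M 2 also had the highest B and plasma cell score of the 34 MCTs (2.25) and M 4 the next (1.02), and the highest endothelial score was that of M 2 (1.61). The part of these other cells in the cross-breed values was not tested.

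CD14 therefore lay on opposite sides of 0 in Labrador Retrievers and in cross-breeds. The test of the difference itself set the M minus NM difference of Labrador Retrievers against that of all other dogs. For CD14 it was -0.80 (SE 0.33, unadjusted limma p = 0.0194, adjusted p = 1.00), and without NM 12 it was -0.66 (unadjusted limma p = 0.0799). Of the 27 genes 2 had an unadjusted p under 0.05 in this test and 0 an adjusted one, against 1.47% and 0% of all clusters. The other was LTF, at 0.50 (SE 0.23, unadjusted limma p = 0.0355, adjusted p = 1.00).

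**Figure D5:**
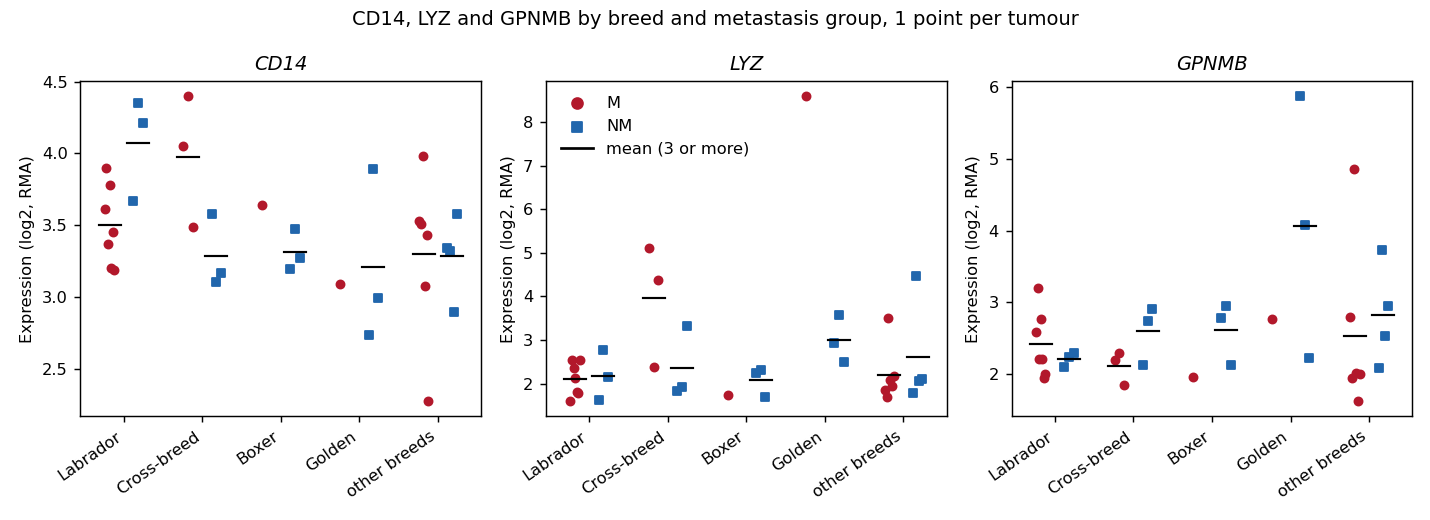
Log2 expression (vertical axes, each with its own scale) of CD14, LYZ and GPNMB by breed, 1 point per tumour, M MCTs (red circles) left of NM MCTs (blue squares), with a black bar at the mean of groups of 3 or more. CD14 was lower on average in M than in NM Labrador Retrievers (means 3.50 and 4.08) and higher in M than in NM cross-breeds (3.98 and 3.28), and the highest LYZ and GPNMB values were those of single Golden Retrievers (8.59 and 5.87).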

How the data were processed

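RNA from FFPE biopsies of 34 MCTs (18 M, 16 NM) had been hybridised to Canine Gene 1.1 ST arrays. The authors deposited log2 values per transcript cluster, made by background correction, quantile normalisation and summarisation with the Robust Multichip Analysis algorithm in Affymetrix Expression Console 1.3 (named in the submitters' processing notes), after outlier arrays had been left out. Quantile normalisation forces a like distribution on each array, so values are relative. Arrays carry no read depth, and the number of arrays and the signal over background limit the precision. The strip that held each array was not given in the sources used here.

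Symbols came from the platform annotation: of 32391 clusters 16878 carried 1 symbol, 289 several and 15224 none. The 19246 clusters above the table's median in at least 30% of M and/or NM MCTs were fitted with limma 3.58.1 (lmFit, eBayes; R 4.3.3), and p-values were adjusted over all of them by the Benjamini-Hochberg method. This level filter stood in for detection above background. In a self-test on simulated differences between M and NM over 19246 clusters, 52%, 90% and 96% of clusters changed by 0.5, 1 and 2 were recovered. The changed clusters were picked at random, with normal, independent noise at each cluster's own spread. These shares therefore do not describe genes with a large SE, such as RAC2 (0.34), LYZ (0.46), S100A8 (0.61) and S100A9 (0.81). Ages and sex came from the study's sample tables.

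The genes and lists were chosen with earlier results of these data known. Full statistics were given for the 8 genes with the smallest p in M minus NM, the 4 with the smallest p among breeds, the 4 with the largest SD and the highest mean of each role group, and other genes named were chosen after their values were seen. Correlations used 100000 permutations.

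M and NM MCTs share replicate numbers in the labels, but same-numbered tumours came from different dogs, and 3 of 16 same-numbered pairs had correlated deviations (r over 0.1, median -0.17), so the numbers were not taken to pair the tumours. Alternatives covered the level filter, normalisation, variance model, array weights, age, sex, breed, marker scores, replicate numbers, an unpaired t-test with Benjamini-Hochberg adjustment and leaving out each MCT.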

Additional observations from a re-analysis of the deposited data

Results flagged for a closer look

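A test for a single outlying tumour was run in 75 groups of 4 to 10 MCTs (genes within breeds), and it picked out 2, while chance picks out about 1 in 20 groups. S100A8 in Boxer MCTs was 3.76 in NM 1, next to 2.53 in the nearest Boxer. S100A9 in cross-breed MCTs was 3.12 in M 3, next to 1.95 in the nearest cross-breed.

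For 2 genes the M minus NM difference of Labrador Retrievers differed from that of other dogs at an unadjusted p under 0.05. The difference of differences was -0.80 for CD14 (limma p = 0.0194) and 0.504 for LTF (limma p = 0.0355). Both had an adjusted p of 1.00, and both lay above 0.05 without NM 12, at unadjusted limma p-values of 0.0799 and 0.0989.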

How the results depend on the processing

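In each of the 6 comparisons the count of the 27 genes past an adjusted p of 0.05 was 0, and it was 0 in all 179 alternative settings. The count at an unadjusted p under 0.05 moved. For M minus NM it was 3 of 35 without the level filter, against 3.96% of all clusters, and 0 of 13 with the filter at the 75th percentile, against 4.23%. Those 3 were TLR4 and CD80, higher in M, and FCGR1A, lower in M. CD80 and FCGR1A were near or under the table's median in most tumours. The count was 0 with age, 2 with the keratinocyte score, 2 with the mast cell score, 3 with breed as a block, and 0 to 3 without single tumours. The shares of all clusters for these last settings are not given here. Without single tumours it ran from 1 to 3 among breeds, 0 to 3 for Labrador Retrievers, 0 to 2 within them, 0 to 7 within cross-breeds and 0 to 5 for the difference of differences.

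Differences with full statistics that changed sign in M minus NM were those of S100A8 (0.27), S100A9 (0.42), S100A12 (0.15) and SPI1 (0.15) with the keratinocyte score, SPI1 with array weights (0.056) and with breed as a block (0.076), and CD14 with breed as a block (-0.065). With the keratinocyte score LTF (0.086), MRC1 (0.012), VSIG4 (-0.011) and TYROBP (-0.0042) changed sign too. Without single tumours SPI1 ran from -0.16 to 0.035 and LYZ from -0.0069 to 0.47. Causes were not tested.

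With the replicate number as a block, 0 genes passed after adjustment and 0 before it in M minus NM, and 0 before it within Labrador Retrievers. The block changed no adjusted call. No paired analysis was possible in cross-breeds because M and NM share only 1 replicate number.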

Other observations

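Lymphocyte genes gave values of their own beside the myeloid ones. All 11 T and NK cell genes tested were above 0 in M minus NM, against 43.9% of all clusters, but most by little, with a median of 0.04. Of the 11, 1 was past an unadjusted p of 0.05 (limma), against 4.14% of all clusters in either direction. That gene was CD3D, part of the T cell receptor complex, which averaged 1.85 ± 0.44 in M MCTs and 1.49 ± 0.15 in NM MCTs (SD), a difference of 0.36 (unadjusted limma p = 0.00346, adjusted p = 1.00). Of 12 B and plasma cell genes tested 2 were past an unadjusted p of 0.05, both higher in M. MS4A1 (CD20) averaged 1.90 ± 0.64 in M MCTs and 1.53 ± 0.17 in NM MCTs (SD), a difference of 0.38 (unadjusted limma p = 0.0249, adjusted p = 1.00). CD79B, of the B cell receptor, averaged 3.49 ± 0.87 in M MCTs and 3.01 ± 0.37 in NM MCTs (SD), a difference of 0.48 (unadjusted limma p = 0.0425, adjusted p = 1.00). The M spread was wide, and the B and plasma cell score was 2.25 in M 2 and 1.02 in M 4, both cross-breeds, against at most 0.62 in every other MCT.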
